A study of Mus musculus with 6 samples.

Results

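FLAG-tagged PTBP1 was crosslinked to RNA in cortex that expressed the Rosa-PTBP1 transgene, with and without homozygous PTBP2 loxP alleles, and the positions of its RNA contacts were compared between the 2 genotypes. The comparison used 2 of the 6 CLIP-seq libraries of the series. One came from Rosa-PTBP1; PTBP2 loxp/loxp; Emx1-Cre neocortex and is called the loxp/loxp library below. The other came from Rosa-PTBP1; Emx1-cre neocortex without the loxP alleles and is called the Rosa-PTBP1 library. Both genotypes carried the transgene and the Cre, both were of the BL6/129Sv background, both were taken on postnatal day 1, and both were precipitated with the same FLAG antibody. The remaining libraries were FLAG precipitations of wild-type cortex (2 libraries), which carries no FLAG-PTBP1 and so measures background, and PTBP2 precipitations of wild-type and of Rosa-PTBP1; Emx1-cre cortex (1 library each). The read intervals of both FLAG-PTBP1 libraries were merged wherever they overlapped or touched on the same strand, which gave 58416 union sites outside chromosome 10. Merging all 6 libraries on all chromosomes gave 168274 sites. Chromosome 10 was left out because it was nearly empty in the Rosa-PTBP1 library.

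PTBP1 and PTBP2 are closely related RNA-binding proteins that contact pyrimidine-rich RNA, mostly in introns and 3′ untranslated regions, and that often repress the exons they flank. PTBP1 is abundant in dividing progenitors and falls as neurons form, when PTBP2 takes its place for a period before it declines too. Their overlapping RNA targets make it a natural question whether PTBP1, when expressed in neurons, contacts the same places on RNA when PTBP2 is removed. Emx1-Cre acts in the progenitors of cortical excitatory neurons and in part of the glia, so interneurons, vessels and microglia of the dissected cortex would keep both PTBP2 alleles. Whether PTBP2 was lost could not be checked in these files, since no PTBP2 precipitation of the loxp/loxp genotype was analysed here. The labels do not say how many animals made up a library.

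Each genotype was represented by 1 library, so there was no replicate check and no significance test. The 95% intervals given below are exact and cover counting error only. The loxp/loxp library held 249048 distinct intervals and the Rosa-PTBP1 library 351071, a depth ratio of 1.41, and both came from the same lane of the same sequencing run by their read names. Interval length was similar, with a median of 32 bases in the loxp/loxp library and 30 bases in the Rosa-PTBP1 library. No read name occurred in both lists, and 7971 intervals had identical ends in both, 3.20% of the loxp/loxp intervals. Values are given as distinct intervals and as a share ratio, which is the site's share of all loxp/loxp intervals divided by its share of all Rosa-PTBP1 intervals. A ratio above 1 means a larger share with the loxP alleles. The other libraries were smaller. Outside chromosome 10, wild-type FLAG replicates 1 and 2 held 83816 and 25658 distinct intervals. The PTBP2 libraries of wild-type and Rosa-PTBP1 cortex held 145439 and 68046. Equal counts in different libraries are therefore unequal shares. The lists hold only clusters that passed the submitters' false discovery rate, so reads may be present at a site listed at 0, and folds against 0 were not computed. The precipitations are of bulk cortex, in which fewer cells carrying an RNA, less of that RNA per cell and less binding to it cannot be told apart.

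Most union sites were listed in one genotype, but most intervals lay in sites listed in both. Of the 58416 sites, 13931 were shared (23.8%, 95% interval 23.5 to 24.2), 17137 were listed with the loxP alleles alone and 27348 without them alone. The shared sites held 75.0% of the loxp/loxp intervals and 64.5% of the Rosa-PTBP1 intervals. They made up 44.8% of the 31068 sites listed in the loxp/loxp library and 33.7% of the 41279 sites listed in the Rosa-PTBP1 library. Shared sites were broad and deep, with a median width of 86 bases and a median of 16 intervals. Sites of the loxp/loxp library alone had a median width of 48 bases and 3 intervals, and those of the Rosa-PTBP1 library alone 47 bases and 4 intervals. Part of this contrast is built in: a shared site adds the intervals and extent of both libraries, and a site of a single interval cannot be shared.

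Sharing followed depth. Among sites of 2 to 4 intervals, counting both libraries, 3.10% were listed in both, and among sites of 5 to 9 intervals 13.9% were. The share was 75.0% at 10 to 29 intervals and 99.2% at 30 to 99. All 483 sites of 100 to 299 intervals and all 94 sites of 300 or more were listed in both. A site that was listed in one genotype alone was therefore nearly always a thin one: 566 such sites of the loxp/loxp library and 2024 of the Rosa-PTBP1 library reached 10 intervals. Few sites of one genotype alone adjoined a site of the other on the same strand, and more had one further along it. For sites of the loxp/loxp library alone, the share with such a neighbour was 12.8% within 50 bases and 44.0% within 500, and for those of the Rosa-PTBP1 library alone it was 10.1% and 38.8%. Within 5000 bases the share with such a neighbour was 67.7% for sites of the loxp/loxp library alone and 66.9% for those of the Rosa-PTBP1 library alone. On the opposite strand these shares were 0.0759% and 0.0402%.

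The intervals of the loxp/loxp library were gathered more into deep sites. Sites of 100 or more intervals held 24.8% of its intervals against 19.6% in the Rosa-PTBP1 library, a summed share ratio of 1.27. For sites of 30 to 99 intervals the summed ratio was 1.11, for 10 to 29 intervals it was 0.909, and for 5 to 9 intervals it was 0.717. At sites of 2 to 4 intervals it was 1.09 and at single intervals 1.08. The order was thus not a steady one: the loxp/loxp library held the larger share at the deepest sites and also at the thinnest. The sources used here do not give the threshold behind each list, and its part in this difference was not tested.

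**Figure D1:**
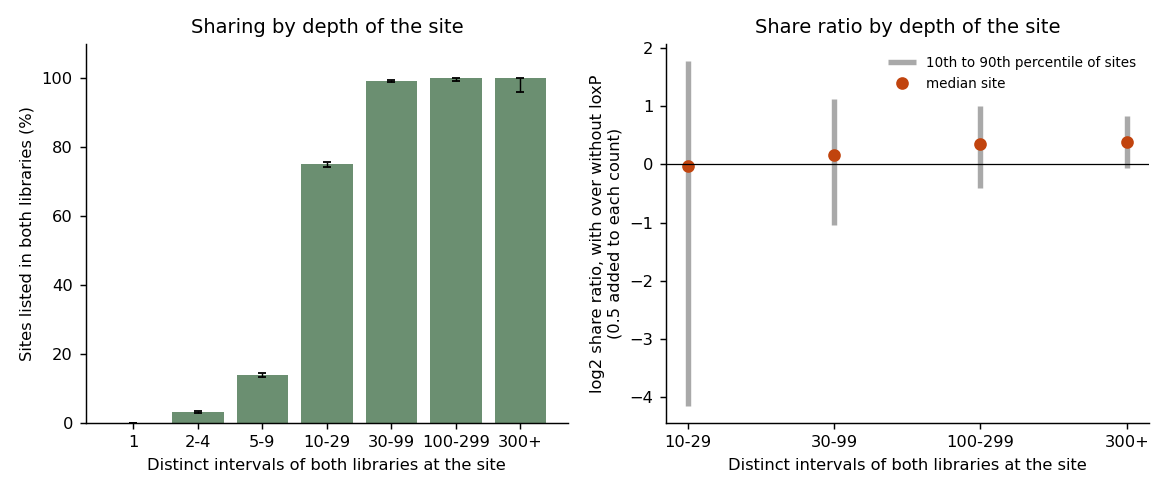
Left, percent of union sites listed in both FLAG-PTBP1 libraries (bars, with exact 95% intervals) against the number of distinct intervals at the site in both libraries together. Right, log2 share ratio of the loxp/loxp over the Rosa-PTBP1 library with 0.5 added to each count (points are the median site, lines the 10th to 90th percentile of sites); sharing climbs from 3.10% at 2 to 4 intervals to 99.2% at 30 to 99, and the spread of ratios narrows as depth grows.

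At sites of 30 or more intervals, most differences between the genotypes were smaller than 2-fold. There were 3323 such sites. The share was more than 2-fold higher with the loxP alleles at 419 (12.6%) and more than 2-fold lower at 313 (9.42%), which left 2591 (78.0%) within 2-fold. The median ratio was 1.15, or 0.21 on the log2 scale, and the interval counts of the 2 libraries had a Spearman rho of 0.53 over these sites, which share 2 libraries and are not independent. The split into higher and lower depended on the processing. When ratios were divided by their median, 268 of the 3323 sites were higher and 422 lower. When the larger library was drawn down to the size of the smaller one, 2571 sites reached 30 intervals, of which 368 were higher and 157 lower. When intervals within 50 bases were merged, 426 of 3428 sites were higher and 454 lower. The higher sites thus made up 57.2% of those past 2-fold as first counted, and 38.8%, 70.1% and 48.4% under these alternatives.

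Among the 577 sites of 100 or more intervals a smaller share was past 2-fold, but the median ratio was further from 1. At these, 50 sites (8.67%) were more than 2-fold higher with the loxP alleles and 10 (1.73%) more than 2-fold lower, and none was past 4-fold in either direction. Their median ratio was 1.28, or 0.36 on the log2 scale, and rho was 0.66. The sites just inside and just outside the 2-fold line had ratios of 2.01 and 1.99 on the higher side and of 0.464 and 0.511 on the lower side. The 2-fold sites thus run into the rest without a gap.

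**Figure D2:**
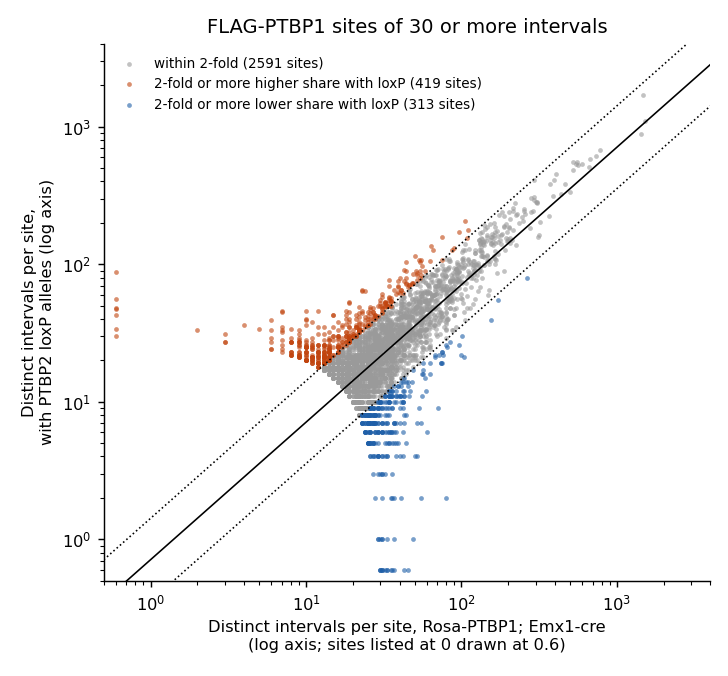
Distinct intervals in the Rosa-PTBP1 library (x axis, log scale) and in the loxp/loxp library (y axis, log scale) at the 3323 sites of 30 or more intervals, with a solid line at equal share and dotted lines at 2-fold; sites listed at 0 are drawn at 0.6. Of the points, 2591 lie between the dotted lines, 419 above and 313 below, and the scatter narrows toward the deepest sites.

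The same 5 sites held the most intervals in both genotypes. A minus-strand site at chrX:100661940-100663380 (mm9) had 1697 intervals in the loxp/loxp library and 1482 in the Rosa-PTBP1 library, a ratio of 1.61 (1.50 to 1.73). It was also deep in both PTBP2 libraries, with 1708 intervals in wild-type and 1595 in Rosa-PTBP1 cortex, and held 2 and 9 intervals in the wild-type FLAG replicates 1 and 2. Its 95% interval lay above those of the other 4. A plus-strand site at chr18:37186472-37189240 had 679 and 776 intervals, a ratio of 1.23 (1.11 to 1.37), and the minus-strand site at chr2:6784635-6786349 had 616 and 739, a ratio of 1.18 (1.05 to 1.31). Close to it on the same strand, the site at chr2:6779052-6782806 had 1094 and 1520, a ratio of 1.01 (0.938 to 1.10). The minus-strand site at chr19:5797324-5798124 had 887 and 1420, a ratio of 0.881 (0.809 to 0.958). It held the most background of the 5, with 111 and 1193 intervals in wild-type FLAG replicates 1 and 2. The chromosome 2 sites also held background, with 27 and 82 at chr2:6779052-6782806 and 11 and 25 at chr2:6784635-6786349. As a share of its library, replicate 2 held 4.65% at the chromosome 19 site, against 0.356% in the loxp/loxp and 0.404% in the Rosa-PTBP1 library. At chr2:6779052-6782806 these shares were 0.320%, 0.439% and 0.433%. The 5 deepest listed sites were thus the same in both genotypes, and each was within 2-fold. Listing alone does not mark them as contacts of FLAG-PTBP1, since the chromosome 19 site had a larger share in cortex without it.

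The 10 sites with the highest ratios, among those of 100 or more intervals, lay on 10 chromosomes and had ratios from 2.78 to 3.30. They held 69 to 159 intervals in the loxp/loxp library and 34 to 75 in the Rosa-PTBP1 library. The highest ratio was at chr9:112132610-112133046 on the minus strand, with 103 intervals against 44, a ratio of 3.30 (2.30 to 4.81). It was 1.99 once intervals within 50 bases of each other were merged. The site at chr12:104210268-104210748 on the plus strand had 115 against 50, a ratio of 3.24 (2.31 to 4.61), and it was deep in both PTBP2 libraries, with 152 intervals in wild-type and 64 in Rosa-PTBP1 cortex. The plus-strand site at chr13:9319318-9319754 had 77 against 34, a ratio of 3.19 (2.11 to 4.93), or 2.12 after merging over 50 bases. At chr2:24690612-24690973 on the minus strand the most intervals of the 10 were listed, 159 against 75, a ratio of 2.99 (2.26 to 3.99).

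In the wild-type FLAG background these 10 sites were close to empty: replicate 1 listed at most 1 interval at any of them and replicate 2 listed 0 at all 10. Most sites of this depth were also listed at 0 there: replicate 1 listed 36.7% of the 577 and replicate 2 listed 10.9%. The PTBP2 library of wild-type cortex listed 96.7% of all 577 sites, with a median of 35 intervals. Of these 10 sites it listed 9, with a median of 21.5 intervals over the 10. The exception was chr4:77373310-77373867 on the minus strand, which had 107 intervals against 53, a ratio of 2.85 (2.03 to 4.03), and was listed at 0 in both PTBP2 libraries and in both wild-type FLAG libraries. The plus-strand site at chr8:68606418-68607016 had 135 against 64, a ratio of 2.97 (2.19 to 4.07), and 137 intervals in the PTBP2 library of wild-type cortex. It was listed at 0 in the PTBP2 library of Rosa-PTBP1 cortex, but that library was sparse on chromosomes 4 to 9, each with 0.536% to 2.07% of its intervals.

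The 10 sites with the lowest ratios lay on 5 chromosomes, with ratios from 0.285 to 0.464. The lowest was the plus-strand site at chr7:5020678-5020939, with 21 intervals in the loxp/loxp library against 104 in the Rosa-PTBP1 library, a ratio of 0.285 (0.169 to 0.458). Counted by distinct 5′ ends its ratio was 0.445. Several of the 10 were neighbours. Adjoining plus-strand sites at chr7:89919723-89920014 and chr7:89920017-89920236 had 39 against 155 and 30 against 101, with ratios of 0.355 (0.243 to 0.507) and 0.419 (0.269 to 0.635). Minus-strand sites at chr2:6620286-6620678, chr2:6747849-6748107 and chr2:6774707-6775058 had 22 against 100, 26 against 97 and 26 against 79, with ratios of 0.310, 0.378 and 0.464. The last 2 lie in the same 100-kb window as the deep site at chr2:6779052-6782806, whose ratio was 1.01.

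Background was higher at some of the low sites than at any of the high ones. The minus-strand site at chr19:5796773-5797003 had 80 intervals against 263, a ratio of 0.429 (0.330 to 0.553), and held 294 intervals in wild-type FLAG replicate 2. When intervals within 50 bases were merged it became part of a larger site with a ratio of 0.806. The plus-strand site at chr14:65209352-65209530 had 55 against 171, a ratio of 0.453 (0.328 to 0.618). The PTBP2 libraries of wild-type and Rosa-PTBP1 cortex held 162 and 211 intervals there, and wild-type FLAG replicate 2 held 14. As a share of the library, these 14 were 0.0546%, against 0.0221% in the loxp/loxp and 0.0487% in the Rosa-PTBP1 library. Of the 10 low sites, 5 were listed at 0 in replicate 1 and 5 in replicate 2. Over all 577 sites, replicate 1 listed 36.7% and replicate 2 listed 10.9%. The part of background in the low ratios was not tested.

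**Figure D3:**
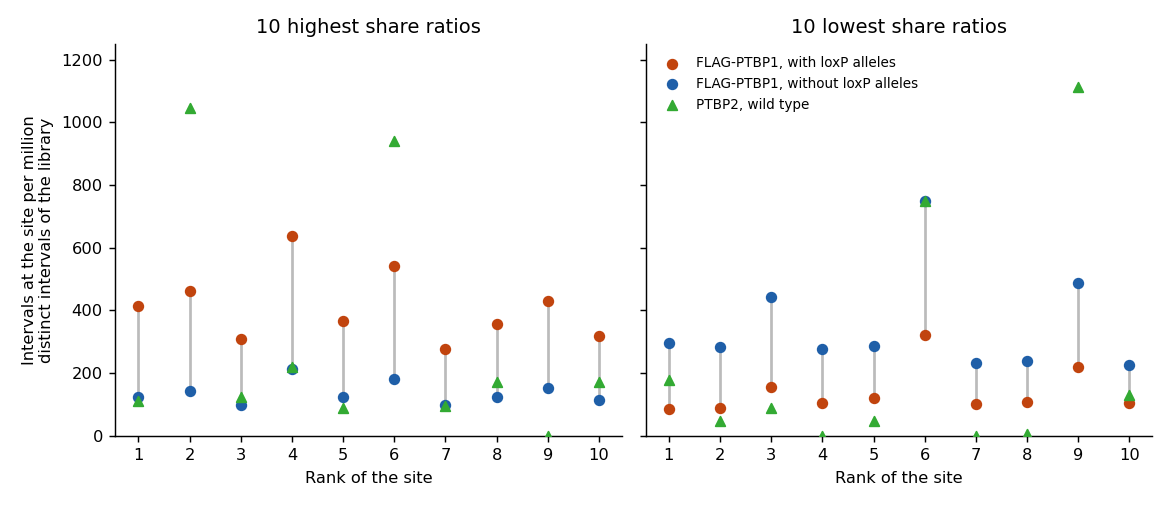
Intervals at the site as a rate over all distinct intervals of the library, in the loxp/loxp and Rosa-PTBP1 FLAG libraries (circles, joined by a line) and in the PTBP2 library of wild-type cortex (triangles), at the 10 sites of highest (left) and the 10 of lowest (right) share ratio among the 577 sites of 100 or more intervals, by rank. The PTBP2 rate was above both FLAG-PTBP1 rates at ranks 2 and 6 of the high sites, with 152 and 137 intervals, and at rank 9 of the low sites, with 162, and it was level with the Rosa-PTBP1 rate at rank 6 of the low sites.

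Some sites of 30 or more intervals were listed in one genotype alone: 14 were listed at 0 in the loxp/loxp library and 7 at 0 in the Rosa-PTBP1 library. The deepest of the 14 was a minus-strand site at chr2:6727223-6727370 with 45 intervals, and next was chr6:77251604-77251849 on the minus strand with 43. All 14 lay between 30 and 45 intervals. Of the 7 on the other side, the deepest were a pair of minus-strand sites on chromosome 19, at chr19:5802264-5802372 with 88 intervals and chr19:5801742-5801826 with 56. A minus-strand site at chr3:80509275-80509371 had 43 intervals in the loxp/loxp library and 0 in the Rosa-PTBP1 library, while the PTBP2 libraries of wild-type and Rosa-PTBP1 cortex held 45 and 58 there. Both PTBP2 libraries thus listed a place at which FLAG-PTBP1 was listed with the loxP alleles alone.

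The chromosome 19 pair stood at the 5′ end of a run of 16 minus-strand sites that spanned 6.30 kb, from chr19:5796075-5796244 to chr19:5802264-5802372. This run was singled out after its values were seen. The 14 sites listed in both genotypes summed, with the pair, to 3598 intervals in the loxp/loxp library and 5036 in the Rosa-PTBP1 library, a ratio of 1.01, yet single sites ranged from 0.429 to 1.44. Read 5′ to 3′ along the RNA, the first of the 14, chr19:5800751-5801013, had a ratio of 1.29 (1.14 to 1.46) and the last, chr19:5796075-5796244, had 0.736 (0.606 to 0.892). The last 5 sites were all below 1, and the lowest, at 0.429, was the last but one. Wild-type FLAG replicate 2 held 53 to 1193 intervals at each of the 14, so all were also background sites in the library of the same run. The 5′ pair differed in this: replicate 2 held 0 and 5 intervals there and replicate 1 held 0 at both.

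**Figure D4:**
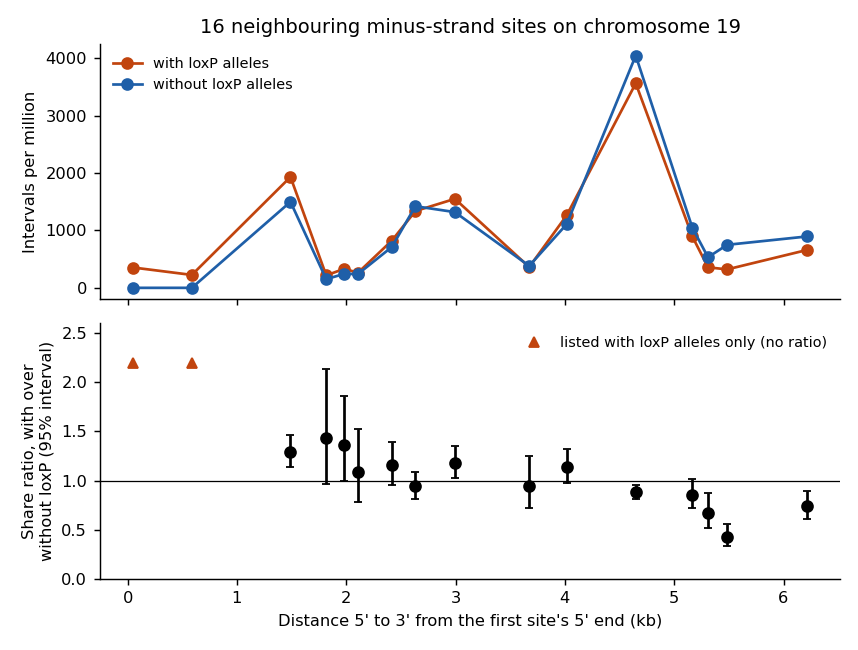
Intervals as a rate over all distinct intervals of each FLAG-PTBP1 library (top) and share ratio with exact 95% counting interval (bottom) at 16 minus-strand sites on chromosome 19, by distance in kb from the 5′ end of the run. Triangles mark the 2 sites listed with the loxP alleles alone, and the ratio passes from 1.29 at the first shared site to 0.736 at the last.

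Around the deep chromosome X site the pattern was unlike that of the site itself. Within the same 100-kb window, 6 further minus-strand sites of 30 or more intervals had ratios from 0 to 0.976, against 1.61 at the deep one. All 6 were listed at 0 in both PTBP2 libraries, and wild-type FLAG replicate 2 held 8 to 34 intervals at each. For example, chrX:100669314-100669407 had 6 intervals in the loxp/loxp library and 42 in the Rosa-PTBP1 library, with 25 in replicate 2. The window as a whole had a ratio of 1.42 by intervals and 0.612 by sites merged within each library alone.

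Loci were taken as 100-kb windows of one strand. Of 590 windows with 200 or more intervals, 28 (4.75%) were more than 2-fold higher with the loxP alleles and 58 (9.83%) more than 2-fold lower, and the median ratio was 0.981. The Spearman rho between the libraries was 0.77 over these windows. Of the 10 windows with the most intervals in each library, 7 were the same. The richest in both was chr2:6700001-6800000 on the minus strand, with 5407 intervals in the loxp/loxp library and 8076 in the Rosa-PTBP1 library, a ratio of 0.944 (0.912 to 0.977). The windows just inside and outside the 2-fold line had ratios of 2.02 and 2.00 on the higher side and 0.498 and 0.503 on the lower side.

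The largest ratio at any of the 590 loci, in either direction, was a lower one. The minus-strand window chr5:122400001-122500000 had 17 intervals in 3 sites in the loxp/loxp library and 296 intervals in 38 sites in the Rosa-PTBP1 library, a share 12.4-fold lower (7.58 to 21.5). Its deepest site, chr5:122486696-122487009, had 6 against 60. The PTBP2 library of wild-type cortex held 12 intervals in the window, and wild-type FLAG replicates 1 and 2 held 12 and 4. As shares of their libraries, the wild-type FLAG counts were 0.0143% and 0.0156%. The share was 0.00683% in the loxp/loxp and 0.0843% in the Rosa-PTBP1 library. Next were the minus-strand window chr15:95200001-95300000 with 28 against 235, 5.95-fold lower (4.01 to 9.15), and the plus-strand window chr4:103600001-103700000 with 26 against 198, 5.40-fold lower (3.58 to 8.47). Counted by sites merged within each library alone, in place of intervals, these last ratios were 0.337 and 0.317, still past 2-fold. These loci listed fewer union sites as well as fewer intervals: 8 against 35 on chromosome 15 and 7 against 29 on chromosome 4.

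Some of these low windows continued into the next window and others did not. The minus-strand window chr11:36600001-36700000 had 45 intervals against 306, 4.82-fold lower, and the window before it, from 36.5 to 36.6 Mb, had 119 against 496, a ratio of 0.338. The plus-strand window chr19:57800001-57900000 had 34 against 170, 3.55-fold lower, and the window after it 24 against 169, a ratio of 0.200. In contrast, the window after the chromosome 15 locus had 488 against 499, a ratio of 1.38. Of the 20 windows that adjoin the 10 lowest, 13 held 30 or more intervals, 6 of these also had a ratio below 1, and 4 were more than 2-fold lower.

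The highest windows had ratios from 2.51 to 4.08 and lay on 9 chromosomes. The highest was the plus-strand window chr5:64000001-64100000, with 197 intervals in the loxp/loxp library against 68 in the Rosa-PTBP1 library, a ratio of 4.08 (3.09 to 5.46). By sites merged within each library alone its ratio was 1.90. Of the union sites, 25 were listed in the loxp/loxp library against 17. The minus-strand window chr18:72100001-72200000 had 144 against 59, a ratio of 3.44 (2.52 to 4.74), and the windows before and after it had ratios of 3.95 and 3.59, so the difference spanned 3 windows in a row. The plus-strand windows chr2:18000001-18100000 and chr8:68600001-68700000 had 268 against 114 and 282 against 122, with ratios of 3.31 (2.65 to 4.16) and 3.26 (2.63 to 4.06). The chromosome 8 window contains the plus-strand site with 135 against 64 named above, and the window before it had a ratio of 2.66. Of the 20 windows that adjoin the 10 highest, 8 held 30 or more intervals, 7 had a ratio above 1 and 4 were more than 2-fold higher.

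Among the 10 highest windows, 1 also held many intervals on the opposite strand. On chromosome 1 from 42.7 to 42.8 Mb the plus strand had 214 intervals against 105, a ratio of 2.87 (2.26 to 3.66), and the minus strand had 59 against 116, a ratio of 0.717 (0.515 to 0.989). The 2 strands of this locus thus lay on either side of 1. It was the only one of the 10 highest windows whose opposite strand held 30 or more intervals.

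Within some loci, single sites went both ways. Of 340 windows with 3 or more sites of 30 or more intervals, 69 held at least 1 site more than 2-fold higher and at least 1 more than 2-fold lower, 103 held only higher ones, 63 only lower ones and 105 neither. The richest window, on chromosome 2, had 71 such sites, of which 3 were higher and 14 lower and 3 were listed at 0 in one of the libraries. The plus-strand window chr9:27900001-28000000, with 3446 against 3352 intervals and a ratio of 1.45 (1.38 to 1.52), had 45, of which 10 were higher and 1 lower. In the plus-strand window chr16:6800001-6900000, with 1701 against 2808 and a ratio of 0.854, 3 of 36 were higher and 8 lower. A locus near equality could thus hold sites past 2-fold in both directions. Over all 3323 sites of this depth 12.6% were higher and 9.42% lower, and a window with more sites has more room for both. Whether windows held both more often than these shares give was not tested. The calls rest on the ratio alone, and the part of counting error in them was not tested.

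The leading site of a locus was more often the same than not. It was the same site in both genotypes in 209 of the 340 windows (61.5%, 56.1 to 66.7). The median share of a window's intervals in its leading site was 18.8% in the loxp/loxp library and 16.0% in the Rosa-PTBP1 library, and it was the larger in the loxp/loxp library in 232 windows. Inside a site, the base covered by most intervals was also compared, over 2331 sites with 15 or more intervals in each library. The median distance between the 2 deepest bases was 12.5 bases. It was within 10 bases at 45.3% of sites and within 25 at 62.8%, and it was over 100 bases at 236 sites. In sites of up to 200 bases the median distance was 8.5 bases, and in wider ones 27. The deepest base of the loxp/loxp library lay upstream at 1178 sites, downstream at 1106 and at the same base at 47.

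PTBP2 contacts, which took no part in choosing the sites, were common at all classes of site. The PTBP2 library of wild-type cortex listed 73.0% (68.5 to 77.2) of the 419 higher sites, 63.6% (58.0 to 68.9) of the 313 lower sites and 79.9% (78.3 to 81.5) of the 2591 within 2-fold. The classes rest on the ratio alone, so the higher and lower ones include sites whose counting interval included equal share. The classes differ in depth, with medians of 43, 38 and 52 intervals. Among sites of 30 to 49 intervals the shares were 64.1%, 60.2% and 68.4%, and the 95% intervals of the higher and lower classes, 57.9 to 70.1 and 53.8 to 66.4, overlapped. Among sites of 50 to 99 intervals the shares were 83.1%, 74.6% and 85.7%. In each of these depth bands the lower sites had the smallest share listed by PTBP2, by margins inside the counting intervals of the higher and lower classes.

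The ratio was larger where PTBP2 itself was deeper. Over sites of 30 to 99 FLAG-PTBP1 intervals, the summed ratio was 1.04 at the 728 sites that the PTBP2 library of wild-type cortex listed at 0, then 1.06 at 1 to 4 PTBP2 intervals, 1.10 at 5 to 9, 1.14 at 10 to 19, 1.18 at 20 to 49 and 1.20 at the 15 sites of 50 or more. Over sites of 100 or more FLAG-PTBP1 intervals it was 1.05 at 0, 1.02 at 1 to 4, 1.07 at 5 to 9, 1.19 at 10 to 19, 1.30 at 20 to 49 and 1.29 at 50 or more. Within each band PTBP2 depth and FLAG-PTBP1 depth still move together: in the second, the median was 123 FLAG-PTBP1 intervals at sites that PTBP2 listed at 0 and 253.5 at those it listed at 50 or more, and the part of depth was not tested.

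Where wild-type FLAG replicate 2 was deeper the summed ratio was lower. At sites of 30 to 99 intervals the summed ratio was 1.12 where this replicate listed 0, 1.01 where it listed 1 to 9 and 0.891 at the 38 sites where it listed 10 or more. At sites of 100 or more it was 1.31, 1.22 and 1.06, over 514, 29 and 34 sites. The median ratios of these sites were 1.30, 1.02 and 1.07, with no steady order. The 29 sites summed to 3935 and 4561 intervals, of which the deep chromosome X site gave 1697 and 1482. The 34 sites summed to 8360 and 11164 intervals. All 14 shared sites of the chromosome 19 run were among them and gave 5036 of the 11164 Rosa-PTBP1 intervals. This 1 run thus weighs heavily in the value of 1.06, and the ratio without it was not computed. Replicate 1 came from other runs. Across its strata the summed ratio was 1.12, 1.04 and 1.14 at sites of 30 to 99 intervals, with no steady order. At sites of 100 or more it was 1.32, 1.28 and 1.16. Either wild-type FLAG library listed 16.7% (13.3 to 20.6) of the higher sites, 23.6% of the lower ones and 23.5% (21.8 to 25.1) of those within 2-fold, against 22.6% of all 3323. These shares were not matched on depth. Among sites of 30 to 49 intervals, replicate 1 listed 14.3%, 14.3% and 14.2% of the 3 classes, and replicate 2 listed 3.59%, 6.56% and 5.77%. Among sites of 50 to 99 intervals, replicate 1 listed 16.1%, 23.7% and 16.1%, and replicate 2 listed 5.08%, 13.6% and 4.88%. With the sites of either wild-type FLAG library left out, 349 of 2571 were higher and 239 lower. Handled in the same way, the wild-type FLAG replicates had 33 sites of 30 or more intervals, of which 26 were listed in both and 31 were past 2-fold. They came from different runs, unlike the FLAG-PTBP1 pair, so they do not measure the spread between libraries of one run.

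**Figure D5:**
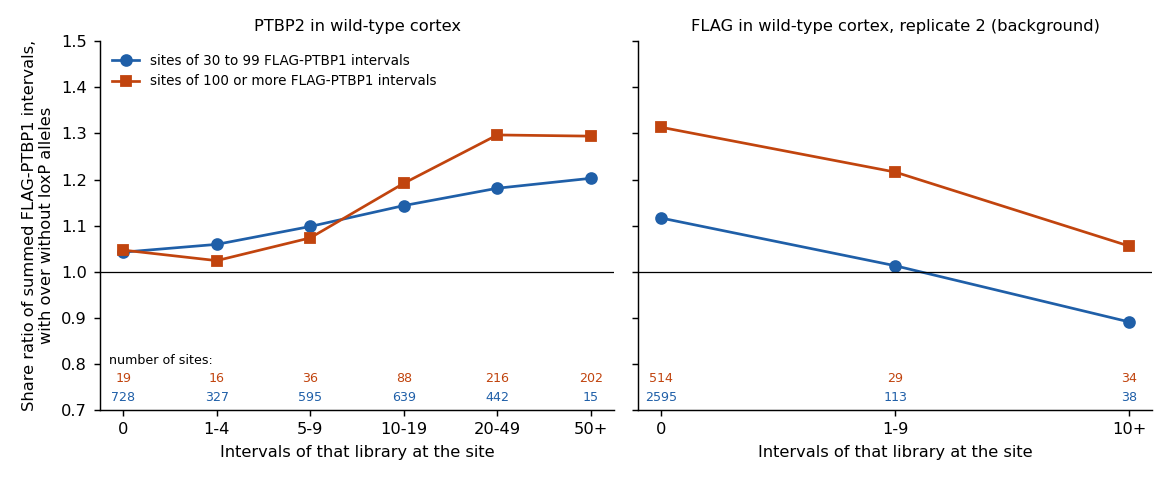
Summed share ratio of the loxp/loxp over the Rosa-PTBP1 library for sites grouped by their intervals in the PTBP2 library of wild-type cortex (left) and in wild-type FLAG replicate 2 (right), for sites of 30 to 99 and of 100 or more FLAG-PTBP1 intervals, with the number of sites in each group. It goes from 1.04 to 1.20 and from 1.05 to 1.29 with PTBP2, and from 1.12 to 0.891 and from 1.31 to 1.06 with background.

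PTBP2 listed a smaller share of the sites found in one genotype alone than of the shared ones. Among sites of 10 to 29 intervals, the PTBP2 library of wild-type cortex listed 40.6% (39.5 to 41.7) of the 7714 shared sites, 33.5% (29.5 to 37.5) of the 559 listed with the loxP alleles alone and 25.6% (23.7 to 27.5) of the 2010 listed without them alone. These 3 counting intervals do not overlap, but the sites were not matched on depth inside the band. PTBP2 listing itself rose with depth, from 14.2% of all union sites at 5 to 9 intervals to 37.3% at 10 to 29 and 73.5% at 30 to 99. The part of depth was not tested. In wild-type FLAG replicate 1 the shares were 8.70%, 6.62% and 9.25%, and in replicate 2 they were 2.72%, 1.79% and 3.33%.

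Across chromosomes the differences were spread widely. The median ratio of sites of 30 or more intervals ran from 0.957 on X (34 sites) to 1.41 on chromosome 8 (122 sites). Chromosome 15 had the largest share of its sites past 2-fold, with 19.3% of 119 higher and 21.0% lower. By strand the values were close, with median ratios of 1.13 on the plus and 1.17 on the minus strand. Width went with the ratio: it was 1.11 at sites of up to 150 bases and 1.31 at the 262 sites wider than 400 bases, of which 0.763% were lower. Wide sites were also the deepest, with a median of 219 intervals against 36. No annotation of the mm9 build was used here, so sites were not assigned to genes, exons or introns, and their sequences were not read.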

How the data were processed

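CLIP-seq was done on nuclear fractions of postnatal day 1 mouse cortex, irradiated at 400 mJ/cm2; RNA was trimmed with micrococcal nuclease and complexes of 80 to 110 kDa were taken, per the labels' protocols. Reads were aligned with Bowtie to mm9, per the submitters' processing notes. Each deposited list gives the intervals (start, end, strand, read name) of significant clusters by FDR, per the file headers; the values are positions, with no count or score. The sources used here name neither the caller nor its level.

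Lines were collapsed to distinct intervals (1.09 lines per interval in the loxp/loxp library and 1.06 in the Rosa-PTBP1 library), and overlapping or touching intervals of one strand were merged. Sites of 30 or more intervals and 100-kb windows of 200 or more were compared. A site was called at 2-fold, whatever its counting interval. The rule for named sites took, among sites of 100 or more intervals, the 10 highest and 10 lowest ratios and the 5 deepest per library, and likewise 10 windows each way and the 10 richest. Ratios have exact conditional binomial intervals and shares Clopper-Pearson intervals (scipy 1.17.1). The scripts were tested on simulated data. Members and lists were chosen with earlier results of these data known. The gene lists set down with the design and the motif search need mm9 annotation and were not analysed here.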

Additional observations from a re-analysis of the deposited data

Results flagged for a closer look

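Chromosome 10 lies outside the comparison, and the loxp/loxp library listed 16905 intervals there, 6.36% of all its intervals, in 2194 sites. The Rosa-PTBP1 library listed 531 on chromosome 10, 0.151% of its intervals, in 85 sites. The PTBP2 libraries of wild-type and Rosa-PTBP1 cortex listed 10008 and 6370, and the wild-type FLAG replicates 1 and 2 listed 4511 and 1007. The 531 intervals still spanned the chromosome, from 6.38 to 128 Mb. With chromosome 10 kept, 420 of 3406 sites (12.3%) were more than 2-fold higher and 366 (10.7%) more than 2-fold lower with the loxP alleles.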

How the results depend on the processing

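Of 54 checks of the counts and shares, 30 stayed near the reported value and 24 moved; 42 of 348 checks of named sites and windows moved. The ratio crossed 1 in 10 of these 348, none of them at a site or window past 2-fold; by sites counted per window it went from 1.42 to 0.612 on X, from 0.912 to 1.67 on chromosome 19 and from 0.944 to 1.20 on chromosome 2. Against 419 higher and 313 lower of 3323 sites (12.6% and 9.42%), a minimum of 10 intervals gave 2445 and 3527 of 13606 (18% and 25.9%). A minimum of 100 gave 50 and 10 of 577 (8.67% and 1.73%), and a fold of 4 gave 55 and 81 of 3323 (1.66% and 2.44%). Scaling by the median ratio left 268 higher of 3323 sites (8.07%), and drawing the larger library down left 157 lower of 2571 (6.11%). Merging over 50 bases gave 426 and 454 of 3428 (12.4% and 13.2%). Against 28 higher and 58 lower of 590 loci (4.75% and 9.83%), a minimum of 100 intervals gave 72 and 131 of 953 (7.56% and 13.7%). A fold of 4 gave 1 and 4 of 590 (0.169% and 0.678%). Sites counted in place of intervals gave 32 lower of 590 (5.42%). Sharing of 23.8% was 24.9% with merging over 50 bases and 43.8% at 5 or more intervals. PTBP2 listing of higher sites (73.0%) was 54.7% by the Rosa-PTBP1 PTBP2 library, 62.5% at 5 or more PTBP2 intervals and 94.0% at 100 or more FLAG-PTBP1 intervals. For lower sites (63.6%) it was 38.8%, 49.8% and 80.0%. The values of the Rosa-PTBP1 PTBP2 library are not like for like. They cover 254 higher and 214 lower sites, without chromosomes 4 to 9, and that library is the smaller of the 2 PTBP2 libraries. Without one or the other wild-type FLAG replicate, the background share of higher sites ran from 3.58% to 14.6% and of lower sites from 9.27% to 17.3%. The cause of these changes was not tested, beyond the smaller or larger sets of sites that the minimums leave. With background sites of replicate 1 left out, 358 of 2696 sites were higher (13.3%) and 259 lower (9.61%). With those of replicate 2 left out, 404 of 3109 were higher (13%) and 284 lower (9.13%). No paired analysis was possible because each genotype compared has 1 library and the labels give it no replicate number. Depth limits thin sites: below 10 intervals most sites were listed in one library alone.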
